A study of Mus musculus with 6 samples.

Results

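The genes described here encode the COPII coat, the protein shell that buds transport vesicles from the endoplasmic reticulum (ER). They are the 10 genes Sar1a, Sar1b, Sec23a, Sec23b, Sec24a, Sec24b, Sec24c, Sec24d, Sec13 and Sec31a, chosen by name, and they were read by 14 of the 45037 probe sets on the array that are not controls. Every probe set whose only gene symbol is one of the 10 was included, 1 each for 6 genes and 2 each for Sar1a, Sec24a, Sec24b and Sec24c. The RNA was that of whole mouse lung at E18.5, shortly before birth, hybridised to 6 MOE430 V2 arrays. Scap had been deleted from respiratory epithelial cells in 3 of the samples, and the other 3 were controls. Both groups came from a mixed FVB/N and B6 background. The driver of the deletion, the exact control genotype and whether samples came from separate animals are not given in the sources used here, so the spread behind each p-value may be only technical.

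COPII assembles in steps. The small GTPase Sar1 is loaded with GTP by Preb, the mammalian Sec12, and inserts into the ER membrane. It then recruits the inner coat of Sec23, which speeds GTP hydrolysis by Sar1, and Sec24, which binds cargo. Sec13 and Sec31 form the outer cage. Scap is itself a COPII cargo: when sterols are low, Sec24 binds a short motif in Scap and carries it with the SREBP transcription factors to the Golgi, where SREBP is cleaved, while Insig proteins hold Scap back when sterols are high. In the lung, type II cells also send surfactant proteins, and fibroblasts collagen and elastin, through this coat. The comparison asks how the transcripts of this route read when one of its cargoes is lost from the epithelium.

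Promoter sequences are shown for 3 members, those with the largest and the smallest differences in size: Sec24d, the one gene whose groups did not overlap, Sec23b, the next by p-value, and Sec24c, whose group means were closest. They come from RefSeq (build GRCm38.p6) and cover the 250 bases before the start site, 5′ to 3′ along the gene. Sec24d lies at chr3:123267246-123267495, Sec23b at chr2:144555979-144556228 and Sec24c at chr14:20674071-20674320, all on the plus strand. Capitals mark matches, on either strand, to the NF-Y box CCAAT, to the ER stress element core CCACG, to the stress factor string TGACGTG and to the sterol element TCACNCCAC.
Sec24d: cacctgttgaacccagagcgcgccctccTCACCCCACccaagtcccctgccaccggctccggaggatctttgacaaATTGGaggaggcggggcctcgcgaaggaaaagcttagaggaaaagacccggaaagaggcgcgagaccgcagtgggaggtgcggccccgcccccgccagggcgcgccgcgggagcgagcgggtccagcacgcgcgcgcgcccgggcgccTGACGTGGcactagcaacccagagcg
Sec23b: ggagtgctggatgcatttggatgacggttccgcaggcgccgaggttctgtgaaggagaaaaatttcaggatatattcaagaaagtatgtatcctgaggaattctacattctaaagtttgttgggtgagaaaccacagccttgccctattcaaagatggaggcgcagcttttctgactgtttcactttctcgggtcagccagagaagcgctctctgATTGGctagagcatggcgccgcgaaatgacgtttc
Sec24c: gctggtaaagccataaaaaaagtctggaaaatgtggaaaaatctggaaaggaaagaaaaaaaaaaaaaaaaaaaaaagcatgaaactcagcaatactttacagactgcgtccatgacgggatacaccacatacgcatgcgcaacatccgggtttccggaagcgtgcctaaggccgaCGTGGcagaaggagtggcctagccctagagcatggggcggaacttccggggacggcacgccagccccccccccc

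All 10 members were found in the RefSeq promoter table, with 12 start sites between them, since Sec23b and Sec31a have 2 each. Each was searched from 250 bases before to 50 after the start, on both strands. TGACGTG, a letter string that XBP1, ATF6 and the CREB3 family of ER stress factors are known to bind, occurred in 2 members, Sec24d at -26 to -20 and Sec23a at 7 to 13 after the start. In Sec24d it overlaps a CCACG on the opposite strand at -23 to -19. Of all 32851 promoters, 2.01% hold TGACGTG. G and C made up 72% and 64.7% of the Sec24d and Sec23a windows, against a median of 52.7% over all promoters. CG pairs numbered 39 and 24 in them, against a median of 7. The share of all promoters takes no account of this. TCACNCCAC, a form of the sterol regulatory element that SREBPs bind, occurred among the members only in Sec24d, at -222 to -214, and in 1.24% of all promoters. The full ER stress response element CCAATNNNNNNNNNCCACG was in none of the 12 member promoters and in 0.119% of all, among them those of the ER chaperone gene Hspa5 (-65 to -47) and of Derl3 (-156 to -138). The E-box CACGTG was in Sar1a (7.15% of all promoters). CCAAT was in 3 members, or 4 of the 12 member promoters, against 37.4% of all. CCACG was in 7 members, or 8 of the 12, against 32.8%. It holds a CG pair itself, and the share of all promoters again takes no account of how many CG pairs a promoter has. These matches describe the letters only, and no binding was measured.

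No coat gene passed the threshold, and the shares of members that stood apart between the groups were near those of all genes. Limma called 0 of the 10 at an adjusted p (Benjamini-Hochberg over the 10972 genes tested) of 0.05, where it called 0.00911% of all genes. At an unadjusted p of 0.05, 1 of the 10, Sec24d, was higher and 0 were lower, against 2.88% higher and 3.04% lower, or 5.92% in all, among the genes tested. The groups did not overlap in the same 1 gene, 10% of the members, against 6.11% of all genes higher and 5.72% lower without overlap (11.8% in all). Sec24d is described first because it had the smallest p of the 10. Log2 differences, Scap-deleted minus control throughout, were positive in 7 members and negative in 3, with 51.7% of all genes positive. The median member stood at 101.8% of control, a log2 difference of 0.026, and the median of all genes was 0.0051. The median size of a member's log2 difference, 0.065, was below the 0.096 of all genes tested. In whole lung, fewer cells of a type and less RNA per cell cannot be told apart.

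Sec24d encodes one of the cargo-binding subunits and is known for its part in the secretion of bone and cartilage matrix. Its signal on the linear scale of the array was 2645, 2793 and 2334 on the control arrays numbered 1 to 3, and 3941, 3371 and 3257 on the Scap-deleted arrays in the same order, which all further lists of values keep. Every Scap-deleted array read above every control array. The means were 2591 ± 234 and 3523 ± 366 (SD, n = 3 each), so Sec24d stood at 135.9% of control, with a 95% interval of 112.4% to 164.3%. The log2 difference was 0.44 (SE 0.12, limma unadjusted p = 0.00621, adjusted p = 0.731). By p-value Sec24d ranked 90 among 10972 genes, and 2.79% of genes had a larger log2 difference in either direction. The exact two-sided permutation test gave p = 0.1, the smallest that 3 against 3 arrays allow. Within the pairs of the same replicate number the log2 differences were 0.58, 0.27 and 0.48. Only 1 probe set carries Sec24d as its sole symbol, so there is no second reading of it here.

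**Figure D1:**
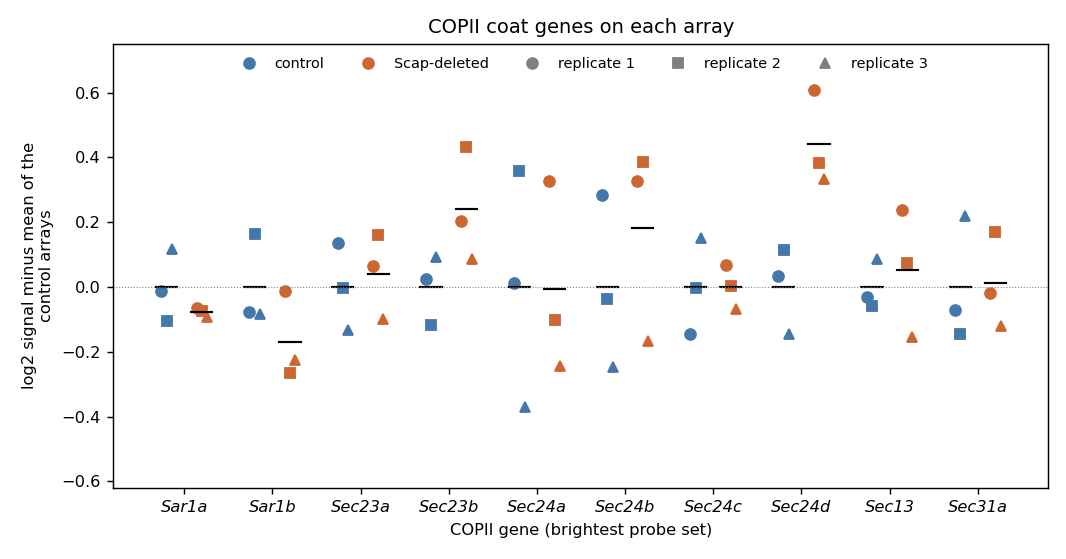
The log2 signal of each COPII gene on each array, minus the mean of the 3 control arrays for that gene, with controls in blue, Scap-deleted arrays in orange, symbols for replicate numbers and horizontal bars for group means. In Sec24d all 3 Scap-deleted arrays lie above all 3 controls, around a mean difference of 0.44, and in the other 9 genes the groups overlap.

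The other Sec24 genes showed no separation. Sec24c, the paralog most like Sec24d in sequence, gave signals of 8347, 9207 and 10250.1 in controls, against 9674, 9263 and 8808 with Scap deleted, and the Scap-deleted values lay inside the range of the controls. Its group means were 9268 ± 953 and 9248 ± 433, a log2 difference of 0.00098 (SE 0.11), with an interval of 84.1% to 119.0% of control. This interval overlaps that of Sec24d, 112.4% to 164.3%. A dim second Sec24c probe set, below the brightness limit for testing, read 477.1 ± 88.9 and 371.5 ± 102.

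Sec24a and Sec24b form the other branch of the family, and Sec24b is known for its part in neural tube closure. Sec24a gave signals of 3799, 4834 and 2917 in controls, against 4724, 3513 and 3180 with Scap deleted. Its arrays scattered widely in both groups, the within-group SD of 0.332 on the log2 scale being larger than that of 90.7% of genes tested. The log2 difference of -0.0073 (SE 0.22) has an interval of 70.2% to 141.1% of control, wide enough to hold a difference of the size seen in Sec24d. Its dim probe set, not tested, gave signals of 382.1, 547.9 and 333.8 in controls, against 554.1, 613.5 and 388 with Scap deleted, which is 123.6% of control with overlapping groups.

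Sec24b gave signals of 4123, 3300.5 and 2851 in controls, against 4248, 4425 and 3014 with Scap deleted. Scap-deleted replicates 1 and 2 were above all controls and replicate 3 was among them. The gene stood at 113.4% of control (interval 83.3% to 154.5%, limma adjusted p = 0.941). Single arrays moved the log2 difference of 0.18 widely, to 0.058 without control replicate 3, 0.080 without Scap-deleted replicate 2, 0.11 without Scap-deleted replicate 1, 0.32 without control replicate 1 and 0.36 without Scap-deleted replicate 3 (unadjusted p = 0.0723). The second probe set of Sec24b pointed the other way, at 96.0% of control (1599 ± 287 and 1522 ± 124), so the direction for this gene depends on the probe set read.

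The Sec23 pair completes the inner coat. Sec23b, the gene of congenital dyserythropoietic anaemia type II, gave signals of 6377.5, 5785.5 and 6679 in controls, against 7212, 8459 and 6649.7 with Scap deleted. Scap-deleted replicates 1 and 2 exceeded every control, and replicate 3 fell just short of control replicate 3. The means were 6281 ± 455 and 7440.3 ± 926, at 118.1% of control (log2 difference 0.24, SE 0.12, interval 97.3% to 143.3%, limma unadjusted p = 0.0829, adjusted p = 0.865). Without Scap-deleted replicate 3 the log2 difference was 0.32 with an unadjusted p of 0.0411, and without both arrays numbered 3 it was 0.36 (0.0357), so that 2 members rather than 1 were under 0.05; the adjusted p values were 0.704 and 0.624. Without Scap-deleted replicate 2, the highest array, it was 0.14 (unadjusted p = 0.269), and without control replicate 2, the lowest, 0.18 (unadjusted p = 0.214).

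Sec23a, needed for collagen export in skull and cartilage, differed little. Controls read 4633.5, 4200.5 and 3844 and Scap-deleted lungs 4404, 4705 and 3932, fully intermixed. It stood at 102.9% of control, with an interval of 85.5% to 123.8%.

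The Sar1 GTPases start the coat, and both had negative differences. Sar1b, which intestine needs to export chylomicrons, gave signals of 6774, 8009 and 6750.5 in controls, against 7086, 5953 and 6113 with Scap deleted. Scap-deleted replicates 2 and 3 were below all controls, while replicate 1 lay between them. The means were 7178 ± 720 and 6384 ± 613, 89.0% of control (log2 difference -0.17, SE 0.12, interval 73.7% to 107.4%, limma adjusted p = 0.899), and control replicate 2 carries much of this, since without it the log2 difference was -0.087.

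Sar1a gave signals of 10310.2, 9660.5 and 11270.3 in controls, against 9928, 9875.5 and 9744 with Scap deleted. The Scap-deleted values lay within the range of the controls and were tightly grouped, with an SD of 95.1 against 809.9. Sar1a stood at 94.8% of control (interval 81.3% to 110.5%), a log2 difference of -0.078 that was -0.019 without control replicate 3 and -0.13 without control replicate 2, and its second probe set at 98.5% (6192 ± 666 and 6092 ± 567).

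The outer cage genes overlapped between the groups. Sec13, whose product also belongs to the nuclear pore, gave signals of 3375, 3311 and 3659.9 in controls, against 4059, 3627.5 and 3099 with Scap deleted, with the highest and the lowest value both in Scap-deleted arrays. It stood at 103.7% of control (interval 85.2% to 126.2%). Sec31a, its partner, gave signals of 5626, 5339 and 6873 in controls, against 5833, 6650.3 and 5440.4 with Scap deleted. Its mean signals were 5946 ± 816 and 5975 ± 617, at 100.7% of control (interval 81.4% to 124.6%).

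**Figure D2:**
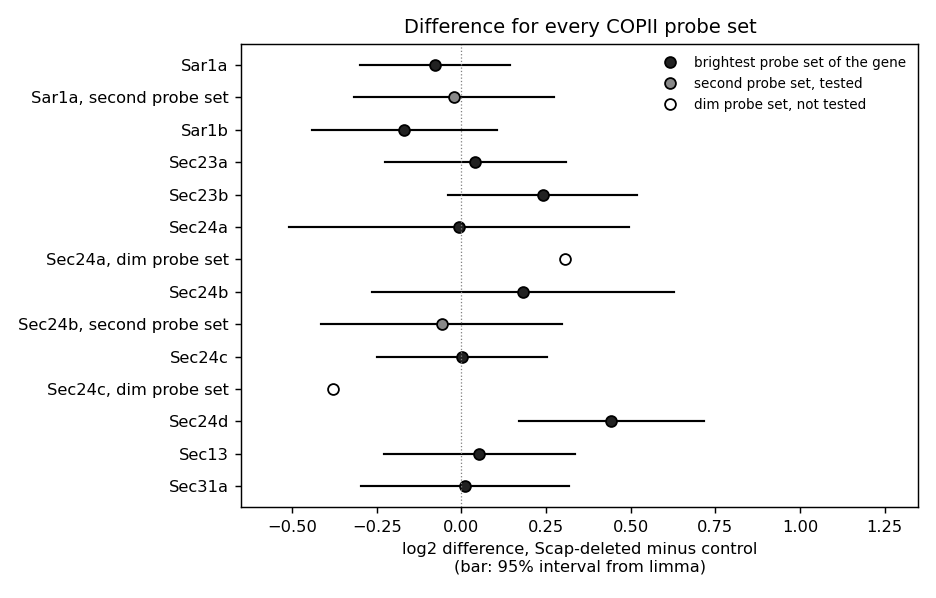
The log2 difference of each of the 14 probe sets, Scap-deleted minus control, with the 95% interval from limma as a bar for the 12 that were tested, taken from the fit over genes for the 10 brightest probe sets and from the fit over probe sets for the second ones of Sar1a and Sec24b; open circles are the 2 dim probe sets without a test. The interval of Sec24d lies above 0, and the intervals of the other 9 genes in the fit over genes include 0, from 70.2% of control at the lowest bound to 154% at the highest.

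Ratios between paralogs, formed within each array, set one gene of a family against another. The Sec24d over Sec24c ratio, on the log2 scale and set to a control mean of 0, was 0.18, 0.12 and -0.30 in controls and 0.54, 0.38 and 0.40 in Scap-deleted lungs, a difference of 0.44 with no overlap. The Sec24d over Sec24a ratio differed by 0.45, from 0.023, -0.25 and 0.22 in controls to 0.28, 0.49 and 0.58, also without overlap. Both ratios hold the same Sec24d values, and Sec24c and Sec24a alone had log2 differences of 0.00098 and -0.0073. The 2 ratios thus largely restate the Sec24d difference of 0.44 and are not further evidence for it. The Sec24d over Sec24b ratio differed by 0.26 and the groups overlapped. Of 8 paralog pairs compared, the 2 without overlap had an exact two-sided permutation p of 0.1, or 0.4 after Benjamini-Hochberg adjustment over the 8. No ratio could have passed 0.05 in a design of this size, whose p cannot go below 0.1, and the test does not decide whether the ratios differ. The Sec23b over Sec23a ratio differed by 0.20 (exact p = 0.3) and the Sar1b over Sar1a ratio by -0.091 (exact p = 0.7), both with overlap.

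**Figure D3:**
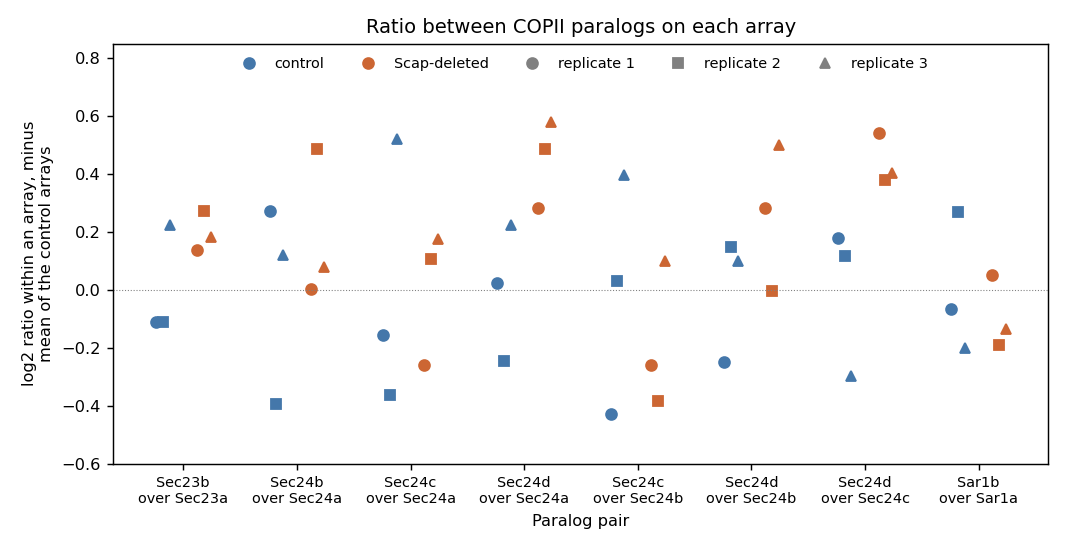
The log2 ratio between paralogs on each array, minus the mean ratio of the 3 control arrays, for 8 pairs, with controls in blue, Scap-deleted arrays in orange and symbols for replicate numbers. The ratios of Sec24d over Sec24a and over Sec24c are higher in all Scap-deleted arrays, by 0.45 and 0.44 on average, and the other 6 pairs overlap. Both of these ratios hold the same Sec24d values.

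Averaged over the 10 genes, the log2 signal centred on each gene's mean was -0.020, -0.019 and -0.067 in controls and 0.14, 0.081 and -0.11 in Scap-deleted lungs. Scap-deleted replicate 3 was thus the lowest array of all and replicate 1 the highest. The arrays numbered 3 also stood apart from the others over all genes tested, on the first principal component (36.6% of the variance). Without both of them the members' median log2 difference was 0.15, against 0.014 for all genes tested, and Sec24d was at 0.42 (unadjusted p = 0.0171, adjusted p = 0.600). The 3 tested genes outside the coat whose centred profile over the 6 arrays lay nearest this average were Morf4l2, Ppp1cc and Ppil1, at a root-mean-square distance of 0.012, 0.018 and 0.021 log2 units, out of 10962 compared.

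The wider ER exit route was described from 4 lists: organisers of ER exit sites and coat regulators, cargo receptors, SNAREs with Rab1 and tethers, and the COPI coat with ER retrieval. Of their 55 tested genes 40 lay above control on the log2 scale and the median gene stood at 104.8%, against 51.7% positive and a median of 100.4% over all genes. Of the 55, 11 were higher and 2 lower without overlap of the groups, 20% and 3.64% of them, against 6.11% and 5.72% of all genes; no test of the lists was made. Limma called 0 of the 55 at an adjusted p of 0.05, and 1 was higher and 1 lower at an unadjusted p of 0.05, against 2.88% and 3.04% of all genes.

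Preb, the exchange factor that loads Sar1 with GTP, was the higher one. It gave signals of 4343, 4021 and 4640.3 in controls, against 5217, 5679.6 and 5477 with Scap deleted, with no overlap. The log2 difference was 0.33 (SE 0.096, limma unadjusted p = 0.0096, adjusted p = 0.731), at 126.0% of control. A second probe set, also well above the brightness limit, read 3438 ± 88.7 and 3492 ± 200.4, 101.5% of control, so the size of this difference varied with the probe set. The remaining one was dim in controls, at 457.2 ± 158 against 665.6 ± 72.2, and adds no support. The TRAPP subunit gene Trappc3, at 110.01%, and Klhl12, an adaptor that modifies Sec31, at 105.7%, were the other organisers without overlap, Klhl12 being named after its values were seen. Tango2 stood at 128.1%, with overlap, and its second probe set at 91.1%. In this list 9 of 12 tested genes were positive, with a median at 105.8%.

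Cargo receptors were positive in 12 of 16 tested genes, with a median at 106.3% of control. Tmed9, a p24 family receptor, stood at 114.2%, Mcfd2, which carries coagulation factors together with Lman1, at 113.5%, and the lectin gene Lman2l at 112.2%, each without overlap and each with a limma adjusted p of at least 0.865. Ergic1 (112.9%) was also higher without overlap and Lman1 (92.1%) lower, both named after their values were seen. Each has 5 probe sets, of which only the brightest is given here. Among SNAREs and tethers 6 of 12 were positive. The Golgi SNARE gene Gosr1 gave 1939.5, 2002 and 1959 in controls against 1678, 1706 and 1756 with Scap deleted, which is 87.1% of control (unadjusted p = 0.0468, adjusted p = 0.831), although its dim second probe set read 124.4%. The tethers Uso1 (112.7%) and Gorasp2 (113.7%), and Golga2 (109.6%, named after its values were seen), were higher without overlap; the second Gorasp2 probe set read 99.1%. In the COPI list 13 of 15 were positive, with a median at 105.5%, and Arf4 (114.0%) was the gene without overlap, while its next 2 probe sets read 103.9% and 88.7%. Copz1 (107.6%) and Arf1 (107.2%) overlapped. Leaving out both arrays numbered 3 took the COPI median log2 difference from 0.077 to 0.14 and that of cargo receptors from 0.089 to 0.14. Without control replicate 2 the COPI median was 0.018, without Scap-deleted replicate 1 it was 0.045 and without Scap-deleted replicate 2 0.044. The cargo receptor median was 0.056 without Scap-deleted replicate 2 and 0.035 with the mean of all probe sets of a gene.

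**Figure D4:**
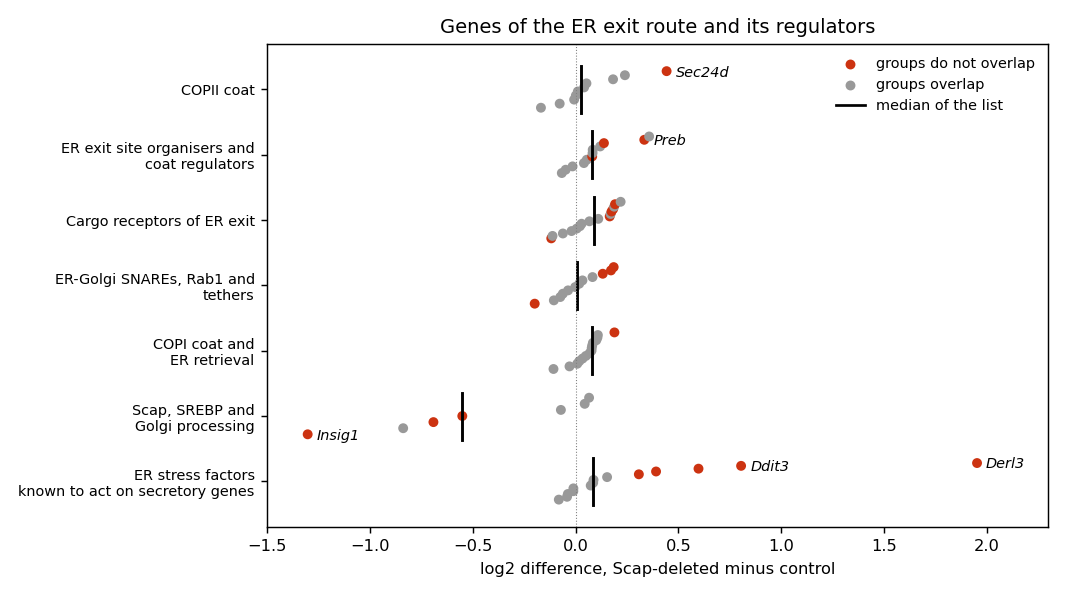
The log2 difference of each tested gene, Scap-deleted minus control, in the COPII coat, 4 lists of the wider route, the Scap and SREBP list and the ER stress list; red points are genes whose groups do not overlap, and black bars are list medians. The COPII median lies at 0.026, the Scap and SREBP median at -0.55, and in the ER stress list 5 genes are higher without overlap. Of these, Derl3 and Sdf2l1 had control means below the brightness limit for testing.

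Limma called 0 of the 7 genes for Scap, SREBP and their processing at an adjusted p of 0.05. Of the 7, 5 were negative, and 4 were lower at an unadjusted p of 0.05, against 3.04% of all genes, with a median at 68.2% of control. Scap itself, the deleted gene, is among the 5 and the 4, and its direction was set by the design. Insig1, which anchors Scap in the ER, stood at 40.5%, Srebf1 at 61.9% and Srebf2 at 68.2%, all without overlap (limma adjusted p = 0.271, 0.478 and 0.478). Over all genes, 5.72% were lower without overlap. Scap, the cargo itself, gave signals of 7264, 4195 and 3080 in controls, against 1847, 3286 and 2702 with Scap deleted, 55.9% of control with overlapping groups (adjusted p = 0.808), so the array is a weak check of the deletion. The Golgi proteases that cleave SREBP, Mbtps1 (104.6%) and Mbtps2 (103.1%), both named after their values were seen, overlapped between the groups.

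Some secretory genes are known targets of ER stress factors, so a list of 15 such factors and their well-known targets was read beside the coat. Of 14 tested, 9 were positive, against 51.7% of all genes, and 5 were higher without overlap, against 6.11%. At an unadjusted p of 0.05 also 5 were higher and 0 lower, against 2.88% and 3.04%. Ddit3, the stress factor CHOP, stood at 174.7% of control. Derl3, which helps degrade misfolded ER proteins, gave 245.3, 196.6 and 406.6 in controls, all below the brightness limit of 497.8, against 1083.5, 866.7 and 1211 with Scap deleted; it was tested only because of the latter, so no fold is given and its place in the counts was helped by the filter. Sdf2l1, a partner of the chaperone BiP, read 467.7 ± 96.7 and 698 ± 50.9. Its control mean was also below the limit, so its place in the counts was helped by the filter too. Derl3 and Sdf2l1 are both among the 5 of each count. These counts therefore cannot be set squarely against the shares of all genes. Hspa5 (131.2%) and Atf4 (123.8%), named after their values were seen, completed the 5. None passed an adjusted p of 0.05. The transcription factors closest to COPII control as background knowledge has it overlapped between the groups: Xbp1 stood at 105.2% of control, Atf6 at 106.2%, Creb3l1 at 94.5% and Creb3l2 at 97.1%, all 4 named after their values were seen. The array read the transcripts of these factors and not their activity, and their part in the Sec24d difference was not tested.

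Cell type markers were read beside the coat genes. Alveolar type II markers were negative in 7 of 9 tested genes, and 4 were lower at an unadjusted p of 0.05, against 3.04% of all genes: the surfactant protein gene Sftpa1 stood at 45.5% of control, the lipid transporter gene Abca3 at 63.9%, Lpcat1, which makes surfactant lipid, at 75.03% and Sftpb at 76.5% (limma adjusted p from 0.671 to 0.801). The groups overlapped in Abca3 and Sftpb. Sftpa1 read 14767, 12965 and 35042 on the Scap-deleted arrays. The other type II markers tested overlapped and stood between 89.6% (Etv5) and 100.6% (Sftpc) of control. The summed signal of the type II list was 346300 to 423400 in controls and between 304200 and 363300 with Scap deleted. Fibroblast and matrix markers had 0 of 8 at that level, with a median at 97.7% of control and summed signals of 288200 to 357500 and 332900 to 340300. Cartilage markers, of interest because Sec24d and Sec23a serve matrix secretion there, were all 8 below the brightness limit, with summed signals of 1612 to 1950 in controls and between 1046 and 1794 with Scap deleted. As a check of the tissue, Sftpc, of type II cells, had mean signals of 97439.7 in controls and 97286 with Scap deleted, and Scgb1a1, of airway club cells, 76972 and 71807, so both defining markers of lung were bright in both groups. Of 6 general lung epithelial markers 3 were negative, and Epcam stood at 77.3% of control without overlap (unadjusted p = 0.0323, adjusted p = 0.801). Transcripts typical of liver were seen in some controls, although all 4 liver markers lay below the brightness limit on average, with summed signals of 578.8 to 9385 in controls and 354.9 to 502.7 with Scap deleted. Afp, the fetal liver protein, read 693.2 and 6700.1 in control replicates 1 and 2 and between 22.2 and 64 on the other 4 arrays, and Alb 1799.9 and 1047.8 against 132.8 to 260.5. Without control replicate 1 the log2 difference of Sec24d was 0.46, and without control replicate 2 it was 0.50 (adjusted p = 0.971 and 0.799). The median marker stood at 95.4% of control for airway secretory and ciliated cells, 100.8% for lung epithelium, 88.1% for endothelium, 106.2% for leukocytes and macrophages and 111.9% for heart and skeletal muscle. Single markers, named after their values were seen, stood apart without overlap. Lyz2 of the leukocyte list was at 57.7%, Cdh5 of endothelium at 85.7% and Tubb4b of the airway list at 119.9%. Their limma unadjusted p values were 0.00285, 0.0319 and 0.0266 (adjusted 0.671, 0.801 and 0.792). Lyz2 and Tubb4b went against their lists, with 4 of 6 tested leukocyte genes positive and 5 of 8 airway genes negative. The control mean of Lyz2, 58937, was far above the 8301 of Csf1r, the next brightest of its list. Lyz2 is therefore not read here as a measure of leukocytes. Tie1 of endothelium (85.8%), Dynlrb2 of the airway list (109.9%) and Foxa2 of lung epithelium (91.4%) were also without overlap. The part of the markers in the coat genes' values was not tested.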

How the data were processed

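What the authors deposited is 1 table of signal intensity on a linear scale, 45101 probe sets by 6 arrays. RMA is named in the submitters' processing notes, yet the values are not on a log scale, reach down to 0.2 and share a 2% trimmed mean of 1500, so which software scaled them is not settled. Array medians lay between 490.9 and 530.5; array number limits the precision. No detection calls were used.

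Here log2 of the signal was taken with no offset. Affymetrix controls (64) were dropped. The platform annotation gave 1 symbol for 34945 of the rest, more than 1 for 932 and no symbol for 9160. Each of 18193 genes was represented by its brightest probe set; 7221 genes below the median brightness (a signal of 497.8) were not tested. Groups, from the sample titles, were compared with limma 3.58.1 in R 4.3.3 (lmFit, eBayes, 4 residual degrees of freedom), with Benjamini-Hochberg adjustment over 10972 genes. Second probe sets were fitted in the same way among all 22519 probe sets above the limit, with adjustment over them. The fit was tested on simulated data.

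The members and lists were chosen with earlier results of these data known. All members and Scap were named, from each pathway list the 3 genes of smallest p, and marker genes where their level bears on a result; other genes are marked. Titles number the samples 1 to 3 in both groups. Deviations from group means correlated at 0.17, 0.20 and 0.43 between same numbers, and at 0.18 between control 2 and Scap-deleted 1. These values do not settle whether same numbers are pairs. The main fit did not pair the arrays. Same numbers were set as pairs in the within-pair differences of Sec24d and in the replicate block, an alternative. Alternatives were quantile normalization, other filters, an offset, the mean of a gene's probe sets, an intensity trend, the replicate block, and leaving out arrays.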

Additional observations from a re-analysis of the deposited data

How the results depend on the processing

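In all 14 alternatives run, no coat gene passed an adjusted p of 0.05. Sec24d kept its direction in all 14, with log2 differences from 0.36 to 0.50, unadjusted p from 0.00344 to 0.0239 and adjusted p from 0.379 (replicate block) to 0.999. Sec23b, Sec24b, Sar1a and Sar1b also kept their directions, at 0.14 to 0.36, 0.058 to 0.36, -0.13 to -0.011 and -0.25 to -0.087. With the replicate number as a block the value of Sec24d stayed at 0.44 (unadjusted p = 0.00502), 1 member was under 0.05 as before, and no call on a member changed.

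Members near 0 changed sign, each without passing a threshold. With the mean of all probe sets of a gene, Sec24a was at 0.15 and Sec24c at -0.19. Leaving out 1 array took Sec24a to between -0.19 and 0.17, Sec24c to between -0.072 and 0.076, Sec31a to between -0.069 and 0.12, Sec23a to between -0.025 and 0.11, Sec13 to between -0.039 and 0.16, the second Sar1a probe set to between -0.083 and 0.065, and the second Sec24b probe set to between -0.18 and 0.074. Without both arrays numbered 3 the second Sar1a probe set was at 0.14, the members' median at 0.15 and 2 members were under an unadjusted p of 0.05. Leaving out 1 array gave a median from -0.0033 to 0.11 and 1 to 2 such members.

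Over all genes, the 1 call became 0 with no filter on dim probe sets, with the filter at the 75th percentile, with an intensity trend, with the replicate block and without both arrays numbered 3, and was 0 to 1 with 1 array left out. Genes at an unadjusted p of 0.05 numbered 650 in the main fit. With no filter, where more genes were tested, they numbered 1062, and with the 75th percentile filter, where fewer were, 415. The filter also moved the p of single genes. The limma unadjusted p of Sec24d, 0.00621 in the main fit, was 0.016 with no filter and 0.00344 with the 75th percentile filter. Genes at an unadjusted p of 0.05 numbered 955 with the replicate block, 833 without both arrays numbered 3 and 510 to 766 with 1 array left out. With 3 arrays a group, the 95% intervals for the coat genes had a median full width of 0.55 log2, before adjustment for the number of genes.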
